A study of Caenorhabditis elegans with 26 samples.

Results

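The constitutive chaperones of the cytosol and the chaperones of mitochondria and of the endoplasmic reticulum (ER) were represented by 8 genes of 17118 measured. They are hsp-1, hsp-90 and dnj-12 for the cytosol, hsp-6 and hsp-60 for mitochondria, and hsp-3, hsp-4 and crt-1 for the ER. They were taken by gene symbol from the array annotation, which gives them 12 of 22548 probe sets. They were chosen by symbol and function with earlier results of these arrays in view, selected on measured values that include lower hsp-1, crt-1 and hsp-60 in sdc-2 embryos and lower hsp-60 and hsp-1 in dpy-27 embryos. For that reason the mutant comparisons of these 8 genes are given as descriptions, with no p. Where one of them is said below to be called or not called, this states only on which side of the threshold the fit over all genes put it, and nothing is supported with it. Comparisons within one genotype between the dates in the sample titles are not among the values named above and are given with their test. Earlier results of these arrays were known when the genes were chosen, so the p of those comparisons may be affected by the choice.

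Chaperones bind proteins that are not yet folded or have lost their fold. Hsp70 proteins hold exposed stretches of a client in a cycle driven by ATP and by J-domain partners, Hsp90 acts later on a set of signalling and regulatory proteins, and the barrel-shaped Hsp60 encloses a client while it folds. Each compartment has its own members and its own stress response, so the heat-shock response, the mitochondrial unfolded protein response and the ER unfolded protein response can be read from different genes. Embryos carry much chaperone mRNA under normal growth.

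The study measured embryos of Caenorhabditis elegans, released from gravid adults by bleaching, on 26 Affymetrix arrays, in a study of X-chromosome dosage compensation. The mutant groups were XO embryos (8 arrays), sdc-2 XX embryos (3 arrays) and dpy-27 XX embryos (3 arrays). XO embryos are strain TY2222, with 1 X chromosome and with allele y9 of xol-1, y74 of sdc-2, e101 of unc-9 and hv1y101 of her-1, grown on egg plates. Their controls were wild-type XX embryos from egg plates (6 arrays), which carry none of these alleles, so X number and alleles differ together. The sdc-2 XX embryos came from animals with the y93 allele that were also fed bacteria carrying an sdc-2 RNAi plasmid. Their controls were embryos of wild-type N2 fed bacteria with a plasmid that had no insert (3 arrays). The dpy-27 XX embryos carry allele y57 and were grown on NG plates, as were their wild-type XX controls (3 arrays). Replicates are described as biological in the series text. In XX embryos a complex that includes DPY-27 and is brought to X by SDC-2 lowers expression from both X chromosomes, and in normal XO embryos it is not active.

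Dates in the sample titles are replaced here by date codes, from 1 for the earliest to 5 for the latest. In the sdc-2 comparison the mutant arrays are all of code 5 and the control arrays all of code 3, and in the dpy-27 comparison they are of codes 1 and 2. Date and genotype therefore cannot be told apart in either. In the XO comparison code 2 holds 3 XO and 3 wild-type arrays, while 5 XO arrays are of code 5 and 3 wild-type arrays of code 4. Values are the deposited log2 values and run from 3.07 to 14.5 on the arrays. The spread of values over probe sets differed by plate type, with a standard deviation of 2.27 to 2.32 on egg plates, 2.00 to 2.06 on RNAi plates and 2.41 to 2.45 on NG plates, so each mutant was set only against controls grown on the same plates. A gene was called when limma gave it an adjusted p below 0.05 (Benjamini-Hochberg, over all 17118 genes). By that rule 8.28% of genes rose and 11.5% fell in sdc-2 embryos, 17% rose and 13.5% fell in dpy-27 embryos, and 15.8% rose and 14.1% fell in XO embryos. Re-centring each array on its autosomal median changed the split of calls in sdc-2 embryos to 1695 rises and 1378 falls, against 1417 and 1973 as deposited. In dpy-27 embryos it gave 3911 rises and 1652 falls, against 2916 and 2312 as deposited, and moved the median change of all genes by 0.10. In XO embryos it gave 2178 rises and 2620 falls, against 2698 and 2411 as deposited.

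Markers of adult tissue were low on all arrays. The 5 measured genes of the yolk protein family, which mark the adult body, had a mean log2 value of 4.56 to 6.06 over all arrays, and 4 sperm genes 4.69 to 6.20, near the lower quartile of the arrays (4.42 to 5.72). Markers of later embryo tissues such as muscle and epidermis (10 genes) had a mean of 9.93 to 9.97 in sdc-2 embryos against 10.41 to 10.43 in their controls, with 4 of 10 called lower. The same list had a mean of 8.63 to 8.86 in dpy-27 embryos against 9.44 to 9.57 in their controls, with 4 called lower and 1 higher. In XO embryos it was 9.02 to 9.67 against 9.61 to 10.10 in wild type, with 7 called lower. Markers of early embryos (8 genes) averaged 10.59 to 10.93 in sdc-2 embryos against 10.12 to 10.37 in controls, with 5 called higher, and 10.60 to 10.86 in dpy-27 embryos against 10.95 to 11.29 in controls, with 3 called lower. In XO embryos 1 of the 8 early-embryo markers was called lower and 7 were not called. The part of these marker lists in the results below was not tested. In whole embryos, fewer cells of a type and less RNA per cell cannot be told apart.

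**Figure D1:**
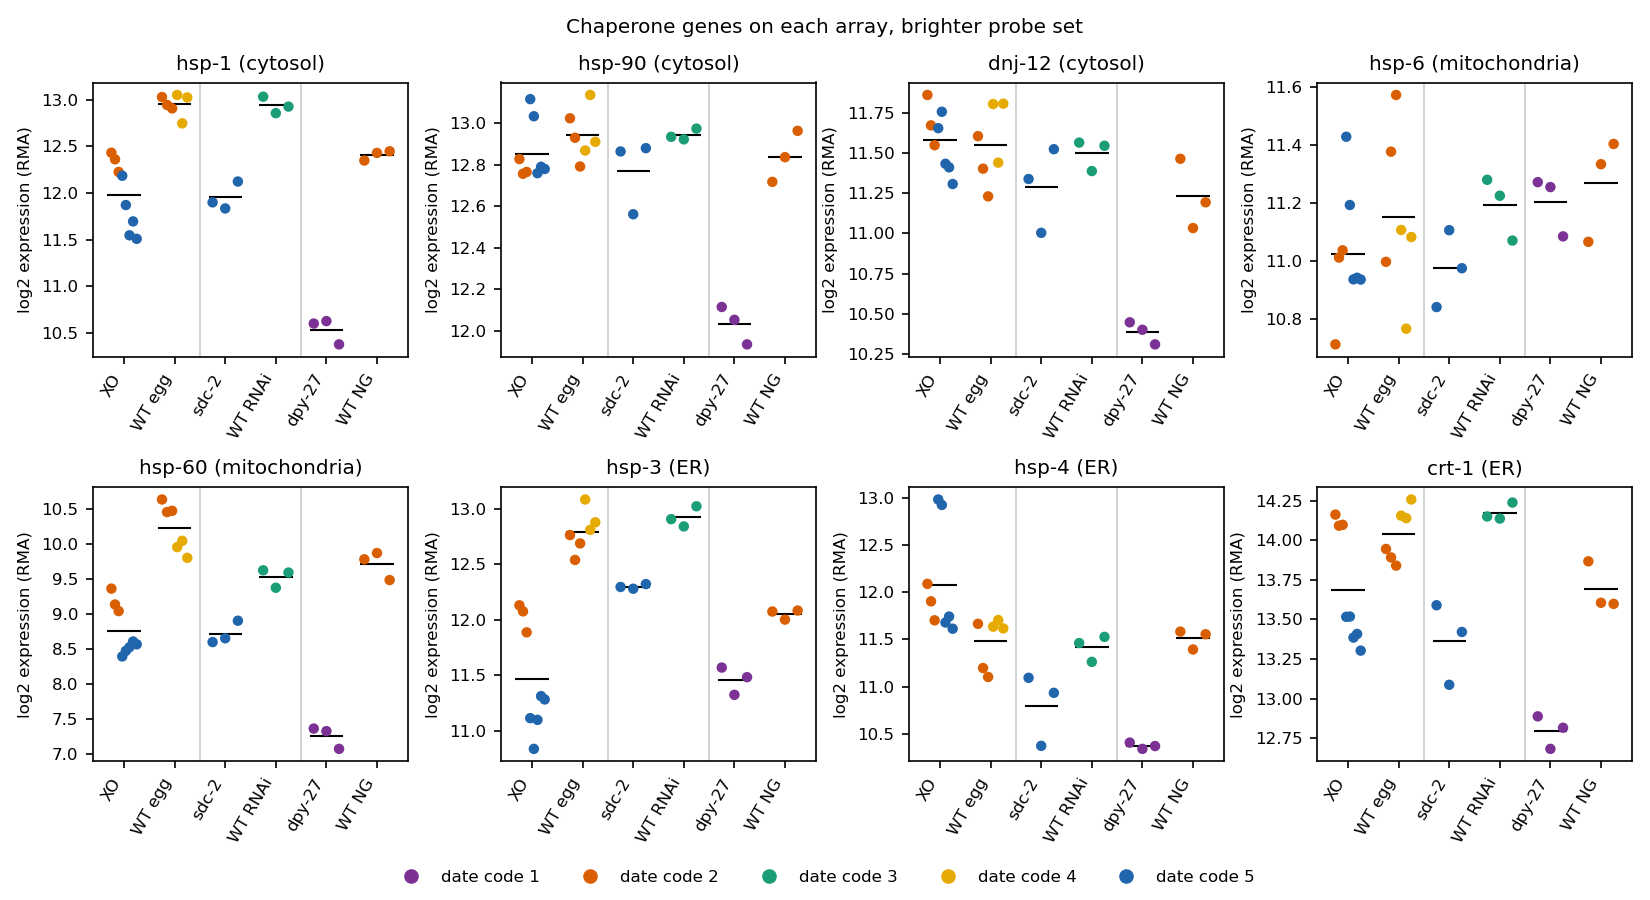
Deposited log2 value of each of the 8 chaperone genes (brighter probe set) on every array, by group and coloured by date code, with a black line at the group mean. For hsp-1 and hsp-60 all mutant arrays lie below all arrays of their own controls, while for hsp-6 the groups overlap throughout.

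The constitutive cytosolic Hsp70 gene hsp-1, on chromosome IV, was lower in all 3 mutant groups. Its only probe set read 11.90, 11.83 and 12.12 in sdc-2 embryos, against 13.03, 12.85 and 12.93 in their controls. It read 10.60, 10.63 and 10.38 in dpy-27 embryos, against 12.35, 12.43 and 12.45 in theirs. XO embryos ranged from 11.51 to 12.43 with a median of 12.03, against 12.75 to 13.05 with a median of 12.98 in wild-type XX embryos. In each comparison every mutant array lay below every control array. The log2 change was -0.99 (SE 0.19) in sdc-2 embryos, -1.87 (SE 0.19) in dpy-27 embryos and -0.97 (SE 0.12) in XO embryos. These are 1.98-fold, 3.66-fold and 1.96-fold lower levels.

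The cytosolic Hsp90 gene hsp-90, on chromosome V, was lower in dpy-27 embryos by both of its probe sets. The brighter one read 12.12, 12.05 and 11.94 in dpy-27 embryos, against 12.72, 12.84 and 12.96 in their controls, a log2 change of -0.80 (SE 0.11). The other read 11.99, 12.09 and 11.93 in dpy-27 embryos, against 12.34, 12.58 and 12.66 in controls, a change of -0.52 (SE 0.14). Both were called lower, and the groups did not overlap in either. In sdc-2 embryos the brighter probe set read 12.86, 12.56 and 12.88, against 12.93, 12.92 and 12.97 in controls, a change of -0.18 (SE 0.11) that was not called although no arrays overlapped. The dimmer probe set read 12.66, 12.43 and 12.65 in sdc-2 embryos, against 12.69, 12.65 and 12.74 in controls, with overlapping groups. XO embryos ranged from 12.76 to 13.12 with a median of 12.78, against 12.79 to 13.14 with a median of 12.92 in wild type. The XO change was -0.09 with overlapping groups, and was not called.

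The gene dnj-12, on chromosome I, encodes a J-domain co-chaperone of Hsp70. Its brighter probe set read 10.45, 10.40 and 10.31 in dpy-27 embryos, against 11.46, 11.03 and 11.19 in their controls, a log2 change of -0.84 (SE 0.16) that was called. In sdc-2 embryos it read 11.34, 11.004 and 11.52, against 11.56, 11.39 and 11.54 in controls, a change of -0.21 (SE 0.16) with overlapping groups. In XO embryos it ranged from 11.31 to 11.86 around a median of 11.60, against 11.23 to 11.81 around 11.52 in wild type. Neither the sdc-2 nor the XO difference was called. The second probe set stayed between 4.27 and 5.51 on all arrays, near the lower quartile, and differed by -0.16 in dpy-27 embryos without a call. The fall of dnj-12 therefore rests on a probe set whose name ends in _s_at, a suffix for probes shared by more than 1 transcript.

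The mitochondrial chaperonin gene hsp-60, on chromosome III, had the largest change of the 8 genes in dpy-27 and XO embryos. Its brighter probe set read 7.36, 7.32 and 7.07 in dpy-27 embryos, against 9.78, 9.87 and 9.49 in their controls, a log2 change of -2.47 (SE 0.23), or 5.53-fold lower. The dimmer probe set read 4.73, 4.71 and 4.67 in dpy-27 embryos, against 7.46, 7.03 and 7.0001 in controls, a change of -2.46 (SE 0.37). The probe sets gave nearly the same change there, and no arrays overlapped. In dpy-27 embryos the dimmer one was near the lower quartile of the NG-plate arrays (4.42 to 4.48), so the size of its change is uncertain. Both names end in _s_at, so the limit given for dnj-12 holds for hsp-60 too.

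In XO embryos the brighter hsp-60 probe set ranged from 8.39 to 9.36 with a median of 8.59, against 9.81 to 10.64 with a median of 10.26 in wild-type XX embryos. The log2 change was -1.47 (SE 0.15), or 2.77-fold lower, and the groups did not overlap. In sdc-2 embryos it read 8.60, 8.65 and 8.90, against 9.63, 9.38 and 9.59 in their controls, a change of -0.81 (SE 0.23). That fall was called for the brighter probe set, while the dimmer one changed by -0.85 (SE 0.37) and was not called. The sdc-2 call was lost when replicate B of the mutant was left out, with a change of -0.78.

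The 2 probe sets of hsp-6, the mitochondrial Hsp70 gene on chromosome V, gave different pictures. The brighter one read 11.27, 11.25 and 11.08 in dpy-27 embryos, against 11.07, 11.33 and 11.40 in their controls, a log2 change of -0.06 (SE 0.16). The dimmer one read 7.02, 7.34 and 7.52 in dpy-27 embryos, against 9.14, 9.15 and 8.69 in controls, a change of -1.70 (SE 0.26), or 3.24-fold lower. Only the dimmer probe set separated the groups and was called there.

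In sdc-2 embryos the brighter hsp-6 probe set read 10.84, 11.11 and 10.97, against 11.28, 11.22 and 11.07 in controls, a change of -0.22 (SE 0.16). The dimmer one read 8.25, 8.27 and 8.26 in sdc-2 embryos, against 9.67, 9.69 and 9.74 in controls, a change of -1.44 (SE 0.26), or 2.71-fold lower. The arrays of each group agree closely for the dimmer probe set, which was called, while those of the brighter one overlap and were not. In XO embryos the dimmer probe set ranged from 7.65 to 9.04 around a median of 8.29, against 8.84 to 9.61 around 9.19 in wild type, a called change of -0.94 (SE 0.17). The brighter one changed by -0.13 in XO embryos, without a call. Which probe set follows hsp-6 mRNA cannot be settled from these files, and with their mean in place of the brighter one hsp-6 was called lower in all 3 mutants, by -0.83 in sdc-2, -0.88 in dpy-27 and -0.53 in XO embryos.

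The ER Hsp70 of C. elegans, known as BiP in mammals, is encoded by hsp-3 on the X chromosome and hsp-4 on chromosome II. Both are measured by single probe sets ending in _s_at, so the 2 measurements may not be fully separate. In XO embryos hsp-3 ranged from 10.84 to 12.13 with a median of 11.30, against 12.54 to 13.08 with a median of 12.79 in wild-type XX embryos. The log2 change of -1.33 (SE 0.16) is 2.51-fold lower, and the groups did not overlap. Of the 2360 X-linked genes, 33.3% were called lower in XO embryos, and 48.5% within date code 2.

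In sdc-2 embryos hsp-3 read 12.30, 12.28 and 12.32, against 12.91, 12.84 and 13.02 in their controls, a change of -0.62 (SE 0.24). In dpy-27 embryos it read 11.57, 11.32 and 11.48, against 12.07, 12.001 and 12.08 in controls, a change of -0.59 (SE 0.24). Arrays did not overlap in either comparison, and neither difference was called in the fit of all 26 arrays. Both were called when the 2 groups were fitted alone. For comparison, 30.8% of X-linked genes were called higher and 0.636% lower in sdc-2 embryos, and 39.2% higher and 3.86% lower in dpy-27 embryos.

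The paralog hsp-4, which the ER unfolded protein response is known to induce strongly, went different ways in the mutants. It read 10.41, 10.34 and 10.37 in dpy-27 embryos, against 11.58, 11.39 and 11.56 in their controls, a called log2 change of -1.14 (SE 0.29), or 2.20-fold lower. In sdc-2 embryos it read 11.09, 10.37 and 10.93, against 11.46, 11.26 and 11.53 in controls, a change of -0.62 (SE 0.29) that was not called, although no arrays overlapped. In XO embryos it ranged from 11.61 to 12.98 with a median of 11.82, against 11.10 to 11.71 with a median of 11.63 in wild type. The XO change of 0.59 (SE 0.19), or 1.51-fold higher, was called although the groups overlapped. It is the one called rise among the 8 genes in the 3 mutant comparisons, and the call held in 19 of its 23 alternatives. It was lost, among others, without wild-type replicate B (0.53) or C (0.52) of date code 2, or with the 2 groups fitted alone. XO replicates A and B of code 5 read 12.98 and 12.92, against 11.61 to 12.09 on the other XO arrays.

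Calreticulin, the calcium-binding ER lectin chaperone encoded by crt-1 on chromosome V, was lower in both XX mutants. It read 13.59, 13.09 and 13.42 in sdc-2 embryos, against 14.15, 14.14 and 14.24 in their controls, a log2 change of -0.81 (SE 0.20), or 1.75-fold lower. It read 12.89, 12.68 and 12.82 in dpy-27 embryos, against 13.87, 13.61 and 13.60 in theirs, a change of -0.90 (SE 0.20), or 1.86-fold lower. Neither comparison had overlapping arrays. The only probe set of crt-1 also ends in _s_at. In XO embryos it ranged from 13.30 to 14.16 around a median of 13.52, against 13.84 to 14.26 around 14.04 in wild type. That change was -0.35 (SE 0.13) over all arrays and was called, but the groups overlapped and the sign turned within date code 2, as given below. Leaving out any XO array of code 5, any wild-type array of code 4 or wild-type replicate A of code 2 ended that call, with changes of -0.37 to -0.30.

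**Figure D2:**
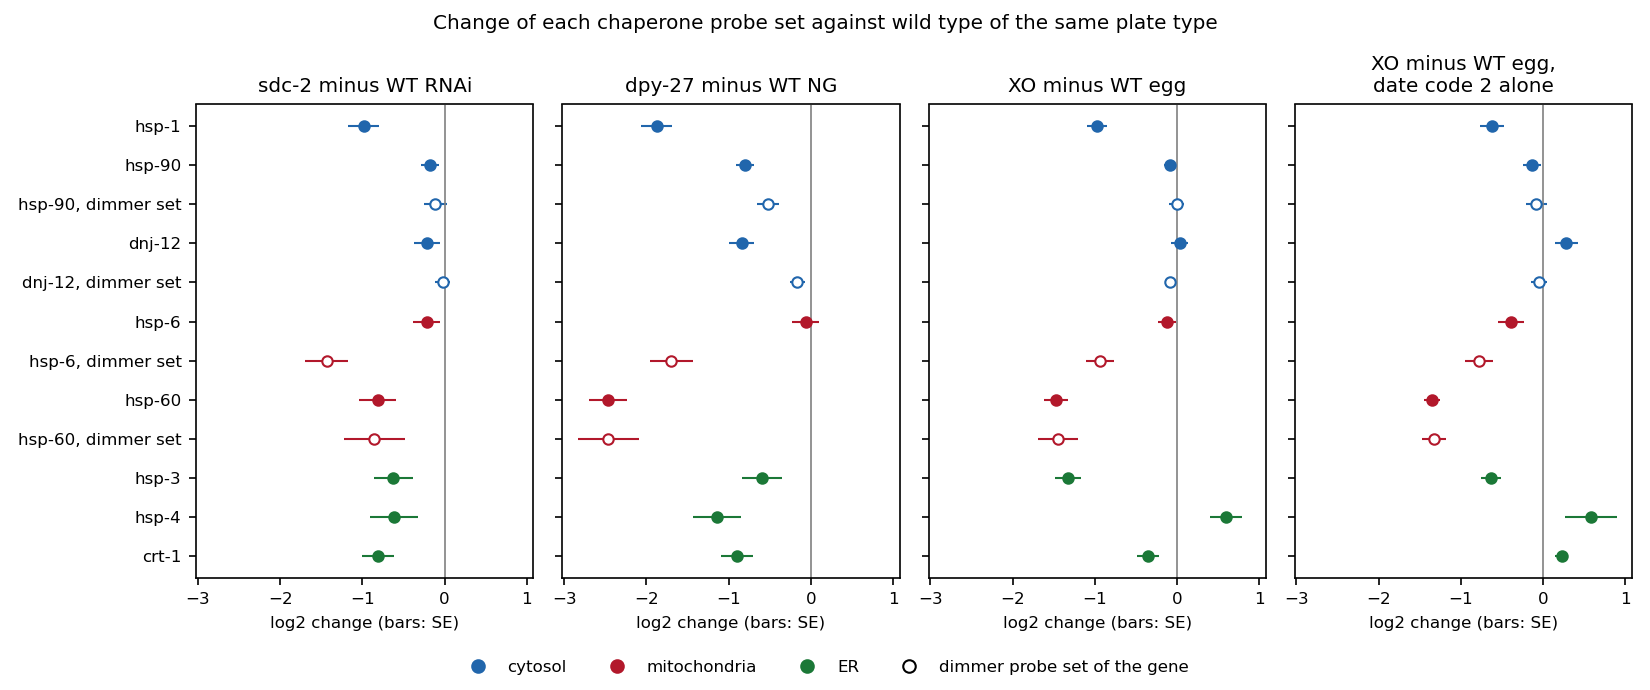
Log2 change with its standard error for each chaperone probe set in sdc-2, dpy-27 and XO embryos, and in XO embryos within date code 2, each against its own wild-type controls (filled points for the brighter probe set, open points for the dimmer one). The dimmer probe set of hsp-6 lies below the brighter one in every panel, at -1.44 against -0.22 in sdc-2, -1.70 against -0.06 in dpy-27 and -0.94 against -0.13 in XO embryos, and at -0.79 against -0.39 in XO embryos within code 2.

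Over the 8 genes, 3 were called lower in sdc-2 embryos (hsp-1, hsp-60 and crt-1), beside 11.5% of all genes. In dpy-27 embryos 6 were called lower, all but hsp-6 and hsp-3, beside 13.5% of all genes. In XO embryos 4 were called lower (hsp-60, hsp-3, hsp-1 and crt-1) and 1 higher (hsp-4), beside 14.1% and 15.8% of all genes. Since such values guided the choice of genes, nothing is read from these counts. The median change was -0.62 in sdc-2 embryos against 0.02 over all genes, -0.87 in dpy-27 embryos against 0.03, and -0.24 in XO embryos against 0.00. Groups did not overlap for 6 genes in sdc-2 embryos, beside 21.8% of all genes with the mutant lower. They did not overlap for 7 genes in dpy-27 embryos, beside 23.1%, and for 3 in XO embryos, beside 3.76%. The genes hsp-1, hsp-60 and crt-1 were called lower in all 3 comparisons, crt-1 in XO embryos with the limits given above.

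With date code as a random block (estimated correlation 0.619), which widens the error of comparisons between dates, all 3 sdc-2 calls were lost, at -0.69 for hsp-1, -0.59 for hsp-60 and -0.39 for crt-1. In dpy-27 embryos hsp-4, crt-1 and dnj-12 were then no longer called, while hsp-1, hsp-60 and hsp-90 still were. Over all 17118 genes that setting left 28 rises and 15 falls in sdc-2 embryos. It left 565 rises and 498 falls in dpy-27 embryos.

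Within date code 2, where XO and wild-type arrays share a date, 3 of the 8 genes were called lower and 1 higher in XO embryos, beside 19.6% and 21.9% of all genes. The hsp-60 probe set read 9.36, 9.14 and 9.04 in XO embryos, against 10.64, 10.46 and 10.48 in wild-type XX embryos, a log2 change of -1.35 (SE 0.10). The hsp-3 values were 12.13, 12.08 and 11.89 in XO embryos, against 12.76, 12.54 and 12.69 in wild type, a change of -0.63 (SE 0.12). The hsp-1 values were 12.43, 12.36 and 12.22 in XO embryos, against 13.03, 12.94 and 12.91 in wild type, a change of -0.62 (SE 0.14). All 3 falls were called, and no arrays overlapped.

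The crt-1 values were 14.16, 14.09 and 14.10 in XO embryos of code 2, against 13.95, 13.89 and 13.84 in wild type of code 2. This change of 0.23 (SE 0.08) was called and is opposite in sign to the one over all dates. The call did not hold when XO replicate A (0.20), wild-type replicate B (0.22) or wild-type replicate C (0.20) of code 2 was left out. The hsp-4 values were 12.09, 11.90 and 11.70 in XO embryos, against 11.67, 11.20 and 11.10 in wild type, and the change of 0.58 (SE 0.32) was not called within code 2. For hsp-6 the dimmer probe set changed by -0.79 (SE 0.17) and was called, while the brighter one changed by -0.39 (SE 0.16) and was not. Changes of 0.28 (SE 0.14) for dnj-12 and -0.13 for hsp-90 were not called. Of the later-embryo markers 6 of 10 were called lower in XO embryos of code 2, at a mean of 9.48 to 9.67 against 10.04 to 10.10 in wild type of code 2. Of the early-embryo markers 3 of 8 were called higher, at 10.20 to 10.49 in XO embryos against 10.09 to 10.27 in wild type, and the part of these markers in the differences was not tested. Groups did not overlap for 5 of the 8 genes within code 2. XO embryos were lower in 3 of them (hsp-1, hsp-60 and hsp-3), beside 25.4% of all genes, and higher in 2 (hsp-4 and crt-1), beside 28.1%.

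**Figure D3:**
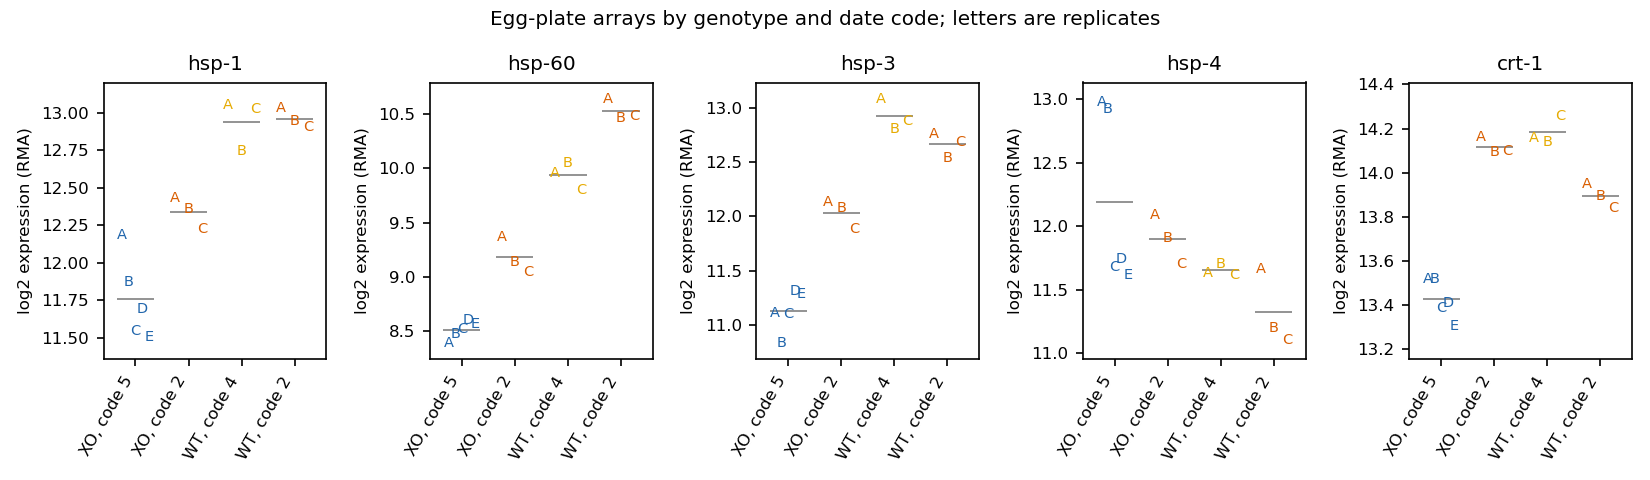
Deposited log2 value of hsp-1, hsp-60, hsp-3, hsp-4 and crt-1 in the egg-plate arrays, split by genotype and date code. Letters mark the replicates and a grey line each mean. XO arrays of code 5 lie below XO arrays of code 2 for hsp-1, hsp-3, hsp-60 and crt-1, and replicates A and B of code 5 stand above C, D and E for hsp-4.

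Arrays of one genotype also differed between dates, in comparisons that share the code 2 arrays with the one above. In XO embryos 4 chaperone genes fell in code 5 relative to code 2 (limma, adjusted over all genes), beside 21.1% of all genes. The ER gene hsp-3 read 11.11, 10.84, 11.10, 11.31 and 11.28 in code 5, against 12.13, 12.08 and 11.89 in code 2, a log2 change of -0.90 (SE 0.11, adjusted p = 8.0e-06). Calreticulin crt-1 read 13.52, 13.52, 13.39, 13.41 and 13.30 in code 5, against 14.16, 14.09 and 14.10 in code 2, a change of -0.69 (SE 0.07, adjusted p = 1.4e-06). The XO arrays of code 5 were thus lower in 5 of 5 arrays for both genes.

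The mitochondrial hsp-60 probe set read 8.39, 8.47, 8.52, 8.61 and 8.57 in XO code 5, against 9.36, 9.14 and 9.04 in XO code 2, a change of -0.67 (SE 0.09, limma adjusted p = 1.9e-05). For hsp-1 the values were 12.18, 11.87, 11.55, 11.69 and 11.51 in code 5, against 12.43, 12.36 and 12.22 in code 2, a change of -0.58 (SE 0.13, limma adjusted p = 0.0020). Again no array of code 5 reached the level of code 2. The share of all genes without overlap between these dates was not computed, so nothing is read from the separation of these genes. The dimmer probe set of hsp-6 also fell, by 0.71 on the log2 scale (limma adjusted p = 0.0015, over all probe sets), while the brighter one changed by 0.17 without a call. The changes of hsp-4 (0.29), hsp-90 (0.11) and dnj-12 (-0.18) did not pass the test. Of the later-embryo markers 7 of 10 fell and 2 rose in XO code 5, at a mean of 9.02 to 9.43 against 9.48 to 9.67 in XO code 2. In the same comparison 3 of 8 early-embryo markers rose, and 3 of 5 adult-body and 2 of 4 sperm markers fell. The part of these markers in the changes was not tested.

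In wild-type XX embryos 1 chaperone gene fell and 1 rose in code 4 relative to code 2, beside 18.9% and 21.2% of all genes. The hsp-60 probe set read 9.96, 10.05 and 9.81 in code 4, against 10.64, 10.46 and 10.48 in code 2, a log2 change of -0.59 (SE 0.10, limma adjusted p = 0.00017). Its dimmer probe set fell by 1.12 on the log2 scale (limma adjusted p = 2.6e-05). The crt-1 values were 14.16, 14.14 and 14.26 in code 4, against 13.95, 13.89 and 13.84 in code 2, a change of 0.29 (SE 0.08, limma adjusted p = 0.0059). For hsp-60, crt-1 and also hsp-3 the dates did not overlap. The share of all genes without overlap between the wild-type dates was not computed. Changes of -0.02 for hsp-1, 0.26 for hsp-3 and 0.33 for hsp-4 did not pass the test. Of the later-embryo markers 5 of 10 fell and 2 rose in wild-type code 4, at a mean of 9.61 to 9.68 against 10.04 to 10.10 in code 2, and 6 of 8 early-embryo markers rose. Their part in these changes was not tested.

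Re-centring on the autosomal median raised the median change of all genes by 0.17 between the wild-type dates and turned the split of calls to 7959 rises and 2287 falls, against 3621 and 3234 as deposited. With it, hsp-3 and dnj-12 were called higher in code 4 (0.43 and 0.44). Within code 2, re-centring gave 4834 rises and 2803 falls in XO embryos, against 3756 and 3362, and dnj-12 was then called higher (0.36).

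Genes that work with the 8 chaperones were followed in lists by compartment. The cytosolic list holds 28 genes: Hsp70 and Hsp90 co-chaperones, the subunits of the CCT chaperonin and of prefoldin, and the heat-shock factor hsf-1. In sdc-2 embryos 11 of 28 fell and 1 rose, beside 11.5% and 8.28% of all genes, with a median log2 change of -0.33 against 0.02 over all genes. With date code as a random block none of the 67 partner genes was called in sdc-2 embryos by limma, beside 43 of all 17118 genes. In that fit 3 of 28 cytosolic, 5 of 21 mitochondrial and 2 of 18 ER genes had an unadjusted p under 0.05. The share of all genes at that unadjusted threshold is not given here, so nothing is read from these 3 counts. The kinase-specific Hsp90 co-chaperone cdc-37 fell by 1.64 (SE 0.30) and the prefoldin subunit pfd-6 by 1.20 (SE 0.40), while sti-1, an adaptor between Hsp70 and Hsp90, rose by 0.68 (SE 0.21). In dpy-27 embryos 12 fell and 3 rose, beside 13.5% and 17% of all genes, with a median of -0.38 against 0.03. With that block 6 of the 28 genes were still called lower in dpy-27 embryos and none higher. Over all 17118 genes it left 498 falls and 565 rises there.

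There sti-1 fell by 2.78 (SE 0.21), or 6.85-fold, and cdc-37 by 2.20 (SE 0.30). The myosin chaperone unc-45 rose by 0.66 (SE 0.14) and hsb-1, a negative regulator of HSF-1, by 0.50 (SE 0.18). The sign for sti-1 thus differed between the 2 XX mutants, and that difference was not tested. In XO embryos 4 of 28 rose and 4 fell, beside 15.8% and 14.1% of all genes, with a median of -0.01. The CCT subunits cct-1 and cct-5 rose by 0.44 (SE 0.15) and 0.43 (SE 0.08), and cdc-37 fell by 1.00 (SE 0.20). Within date code 2 the XO counts were 10 rises and 3 falls, beside 21.9% and 19.6% of all genes, led by the rises of pfd-6 (0.68) and pfd-1 (0.55) and the fall of the Hsp70 exchange factor gene hsp-110 (-1.14).

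The mitochondrial list holds 21 genes for J-domain partners, proteases, prohibitins, import subunits and regulators of the mitochondrial unfolded protein response. In sdc-2 embryos 12 of 21 fell and 1 rose, beside 11.5% and 8.28% of all genes. The median log2 change was -0.50 against 0.02 over all genes, and none was called with date code as a random block, as given above. The largest falls were in the import genes dnj-21 (-1.47, SE 0.27) and timm-23 (-1.11, SE 0.28), and timm-17B.1 rose by 0.48 (SE 0.12). In dpy-27 embryos 9 fell and 4 rose, beside 13.5% and 17% of all genes. The median was -0.26, and 3 falls were left with the date block, beside 498 falls over all 17118 genes.

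The import channel gene timm-23 fell by 1.71 (SE 0.28) in dpy-27 embryos and the inner-membrane protease gene ymel-1 by 1.22 (SE 0.20). The X-linked dve-1, a DNA-binding regulator of the mitochondrial stress response, rose by 1.59 (SE 0.35), and the J-domain gene dnj-10 by 0.95 (SE 0.17). In XO embryos 6 of 21 fell and 1 rose, beside 14.1% and 15.8% of all genes, with a median of -0.11. The protease gene spg-7 fell by 1.06 (SE 0.16) and the outer-membrane import pore gene tomm-40 by 0.46 (SE 0.12), while the transporter gene haf-1 rose by 0.37 (SE 0.10). Within date code 2 the XO counts were 3 rises and 4 falls, beside 21.9% and 19.6% of all genes. There dve-1 fell by 0.77 (SE 0.13).

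The ER list holds 18 genes for folding enzymes, J-domain partners, stress sensors and ER-associated degradation. In sdc-2 embryos 7 of 18 rose and 3 fell, beside 8.28% and 11.5% of all genes. Again no call was left with the date block, and the median log2 change was -0.04 against 0.02 over all genes. The X-linked stress sensor gene atf-6 rose by 0.98 (SE 0.24) and the degradation gene sel-1 by 0.89 (SE 0.21), and dnj-27 fell by 1.11 (SE 0.22). In dpy-27 embryos 6 rose and 6 fell, beside 17% and 13.5% of all genes. The median was -0.18, and 3 rises and 1 fall were left with the date block, beside 565 and 498 over all 17118 genes.

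There atf-6 rose by 1.45 (SE 0.24) and the sensor gene ire-1 by 1.07 (SE 0.17). The gene xbp-1, whose mRNA IRE-1 splices to make the transcription factor of this response, fell by 1.40 (SE 0.23), and dnj-27 by 1.39 (SE 0.22). In the same dpy-27 arrays hsp-4 was lower by 1.14, as given above. In XO embryos 6 of 18 rose and 5 fell, beside 15.8% and 14.1% of all genes, with a median of 0.13. There sel-1 rose by 0.97 (SE 0.14) and ire-1 by 0.53 (SE 0.12), and the X-linked genes pdi-2, a protein disulfide isomerase, and dnj-7 fell by 1.22 (SE 0.20) and 0.75 (SE 0.13). These changes pool the dates, and pdi-2 also differed between the XO dates, as given below. Within date code 2, 5 of 18 rose and 4 fell in XO embryos, beside 21.9% and 19.6% of all genes.

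**Figure D4:**
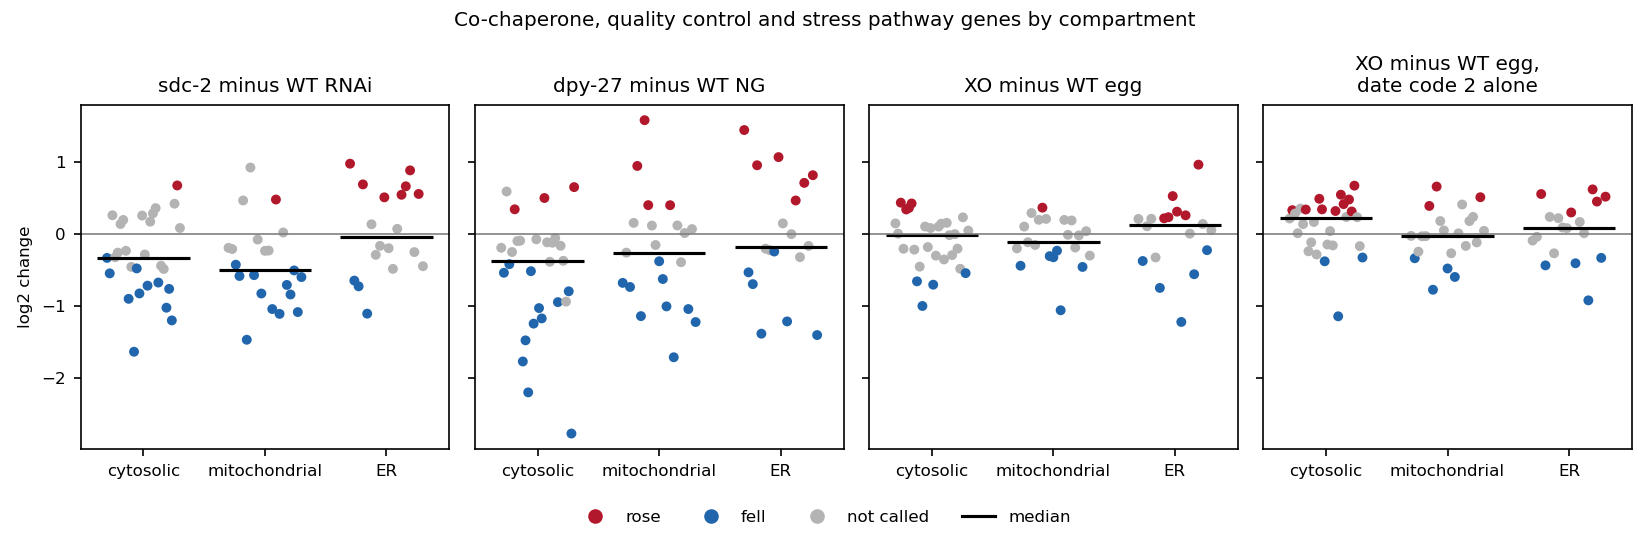
Log2 change of each partner gene by compartment list in the mutant comparisons, coloured red for called higher, blue for called lower and grey for not called, with the list median in black. The cytosolic and mitochondrial lists lie mostly below 0 in sdc-2 and dpy-27 embryos, and the ER list has calls on both sides.

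Partner genes also differed between dates of one genotype. In XO embryos code 5 relative to code 2 had 12 falls and 5 rises in the cytosolic list, 10 falls and 4 rises in the mitochondrial list, and 6 falls and 8 rises in the ER list. Over all genes 21.1% fell and 19.4% rose between these dates. The prefoldin gene pfd-6 fell by 1.59 (SE 0.14), timm-23 by 0.92 (SE 0.15) and pdi-2 by 1.25 (SE 0.09), and dve-1 rose by 1.33 (SE 0.11). In wild type, code 4 relative to code 2 had 11 rises and 2 falls in the cytosolic list, led by pfd-3 (0.76, SE 0.12) and hsp-110 (-0.78, SE 0.11). The mitochondrial list had 2 of 21 genes called there, both higher, and the ER list 4 rises and 1 fall of 18, beside 21.2% rises and 18.9% falls over all genes.

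The stress-inducible heat-shock genes were measured for 3 of 9 listed (hsp-16.2, hsp-16.41 and hsp-70), since the other probe sets name several genes. In dpy-27 embryos all 3 were called lower, with changes of -4.51 to -4.04, beside 13.5% of all genes. In XO embryos all 3 were called lower, with changes of -1.55 to -1.41 over all dates, beside 14.1% of all genes. Within date code 2 all 3 were called lower too (-3.64 to -2.35), beside 19.6%. The 3 genes also differed between dates. In XO code 5 relative to code 2 their changes were 0.75 to 1.72, with 2 rises, beside 19.4% of all genes. In wild-type code 4 relative to code 2 they were -2.06 to -0.96, with 2 falls, beside 18.9%. In sdc-2 embryos their changes ran from -0.75 to 0.02 without a call.

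After joint quantile normalisation of the 26 arrays, levels of a gene could be set side by side across plate types as a description. By this scale hsp-1 averaged 11.98 ± 0.35 in XO, 11.75 ± 0.14 in sdc-2 and 10.62 ± 0.13 in dpy-27 embryos, against 12.89 ± 0.13, 12.70 ± 0.06 and 12.49 ± 0.08 in wild-type embryos from egg, RNAi and NG plates (SD, n = 8, 3, 3, 6, 3 and 3). XO and sdc-2 embryos overlapped, as did wild type from egg and RNAi plates, and dpy-27 embryos stood lowest. For hsp-60 the means were 8.76 ± 0.34 in XO, 8.64 ± 0.12 in sdc-2 and 7.48 ± 0.14 in dpy-27 embryos, against 10.28 ± 0.38, 9.32 ± 0.13 and 9.85 ± 0.23 in the same wild-type groups. XO and sdc-2 embryos again overlapped, and XO also reached into the range of wild type from RNAi plates.

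For hsp-3 the order differed, with XO at 11.46 ± 0.48 and dpy-27 at 11.57 ± 0.13 overlapping at the bottom and sdc-2 at 12.10 ± 0.04, against wild-type means of 12.74 ± 0.19 on egg, 12.69 ± 0.06 on RNAi and 12.16 ± 0.04 on NG plates. The level in sdc-2 embryos overlapped that of wild type from NG plates. For hsp-4, XO embryos stood at 12.11 ± 0.60, sdc-2 at 10.62 ± 0.35 and dpy-27 at 10.47 ± 0.03, against 11.54 ± 0.27, 11.25 ± 0.14 and 11.65 ± 0.09 in wild type from egg, RNAi and NG plates. The 2 XX mutants overlapped each other at the low end.

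For crt-1 the means were 13.70 ± 0.30 in XO, 13.24 ± 0.23 in sdc-2 and 13.09 ± 0.08 in dpy-27 embryos, against 14.02 ± 0.18, 13.95 ± 0.04 and 13.81 ± 0.14 in the wild-type groups from egg, RNAi and NG plates. XO embryos overlapped each wild-type group and also sdc-2 embryos, and the XX mutants overlapped each other. Both XX mutants lay below every wild-type array, with highest values of 13.47 in sdc-2 and 13.16 in dpy-27 embryos. The lowest wild-type value was 13.71, on NG plates. For hsp-90 dpy-27 embryos were lowest at 12.20 ± 0.09, with XO at 12.91 ± 0.16 and sdc-2 at 12.61 ± 0.21, against 12.89 ± 0.15, 12.70 ± 0.02 and 12.86 ± 0.12. For dnj-12 dpy-27 embryos were also lowest at 10.48 ± 0.08, with XO at 11.58 ± 0.16 and sdc-2 at 11.08 ± 0.25, against 11.60 ± 0.24, 11.34 ± 0.08 and 11.36 ± 0.20. The brighter hsp-6 probe set lay between 10.77 ± 0.12 in sdc-2 embryos and 11.41 ± 0.18 in wild type from NG plates, and 11.30 ± 0.11 in dpy-27 embryos.

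Across the 26 arrays, with the mean of each plate type removed, the chaperones fell into different patterns. These correlations are descriptions, since arrays of a group share genotype and date. The differences between mutants and controls remain in the values, including the falls of hsp-1, hsp-60 and crt-1 that guided the choice of genes. Their part in r was not tested. The closest pair was hsp-1 with hsp-60 (Pearson r = 0.95), across the cytosol and mitochondria, followed by hsp-1 with crt-1 (0.88) and hsp-60 with hsp-3 (0.81). The Hsp90 gene hsp-90 and the J-domain gene dnj-12 had r = 0.76, and each was close to hsp-4 (0.71 and 0.73). The paralogs hsp-3 and hsp-4 had r = -0.22. The brighter hsp-6 probe set had r of -0.08 to 0.31 with the other 7 genes, including 0.23 with hsp-60 of the same compartment.

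Among 8558 other genes above the median mean, the nearest to hsp-1 were the glycolytic gene pgk-1 (r = 0.98), the CCT subunit cct-7 (0.96) and the transketolase gene tkt-1 (0.96). For hsp-60 they were cut-2 (0.97), F41F3.3 (0.96) and the small ribosomal subunit gene rpsa-1 (0.96). For crt-1 they were F44E5.1 (0.99), mog-3 (0.98) and the alpha-tubulin gene tba-1 (0.98), and for hsp-3 T18D3.1 (0.96), dkc-1 (0.96) and pqn-39 (0.96). T18D3.1 and pqn-39 are X-linked, as is hsp-3.

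For hsp-90 the nearest genes were ZC239.6 (0.91), the ribosome biogenesis factor gene eif-6 (0.90) and R107.2 (0.88), and for dnj-12 wdr-23 (0.92), eif-2A (0.92) and gmpr-1 (0.91). For hsp-4 they were K11H12.8 (0.89), C37H5.13 (0.89) and pmt-2 (0.88), and for hsp-6 K10H10.4 (0.72), hrg-7 (0.69) and ZK353.2 (0.64). The hsp-6 values are the lowest of the 8 genes, but they come from its brighter probe set alone. The dimmer hsp-6 probe set, which changed otherwise in the mutants, was not used for these correlations.

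**Figure D5:**
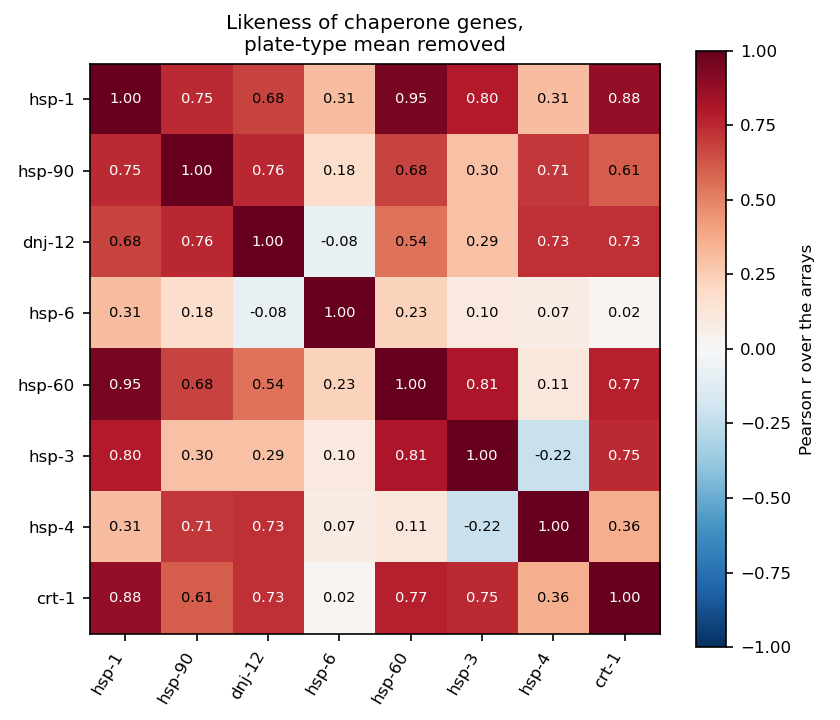
Pearson r between the 8 chaperone genes over 26 arrays, with the mean of each plate type removed. Differences between mutants and controls, some of which guided the choice of genes, remain in the values. The block of hsp-1, hsp-60, hsp-3 and crt-1 has r of 0.75 to 0.95, and the row of hsp-6 (brighter probe set) runs from -0.08 to 0.31.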

How the data were processed

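Total RNA of embryos was measured on 26 Affymetrix arrays. The deposited values are log2 expression per probe set, and the submitters' processing notes name RMA for them, with no version given in the sources used here. Arrays give no read depth, so their number limits the precision. Probe sets were named from the array annotation: 20766 name 1 gene, 887 several and 895 none. For the 2981 genes with several, the one with the highest mean was kept. Chromosomes came from the NCBI RefSeq gene table for WBcel235. limma version 3.58.1 in R version 4.3.3 fitted a mean for each of 6 groups over all arrays, or for each group and date code over the egg-plate arrays, with Benjamini-Hochberg adjustment and two-sided tests; it was tested on simulated data. Probe sets beside the kept one were adjusted over all 20766. Partner and marker genes, and the 8 chaperones, were chosen with earlier results of these data known. The text names, of each partner list, up to 2 of the largest rises and 2 of the largest falls among called genes, and the 3 genes most correlated with each chaperone. Alternatives covered probe set choice, normalisation, filters, sample sets, array weights, date and replicate blocks, the threshold and each left-out array. No sequences are printed.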

Additional observations from a re-analysis of the deposited data

How the results depend on the processing

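Of 800 recomputed values of the 8 chaperones, 738 stayed on their side of the threshold with no called value changing sign, 31 lost a call and 30 gained one. Another sign than reported was found in 20, of which 19 were called in neither fit (such as hsp-6 in dpy-27, hsp-90 and dnj-12 in XO embryos, and hsp-1 between wild-type dates). The other is crt-1 in XO embryos, which changed by 0.077 with date code as a random block, against -0.35. That setting gave 43 called genes in sdc-2 embryos (3390 as reported) and 1063 in dpy-27 embryos (5228 as reported). With array weights, 5588 genes were called in sdc-2 and 8039 in XO embryos (5109 as reported). At an adjusted p under 0.01 the counts were 1859 in sdc-2, 3438 in dpy-27 and 3329 in XO embryos, where the stricter threshold itself lowers them. Leaving out 1 array at a time gave 2089 to 3136 called genes in sdc-2 embryos, lowest without sdc-2 replicate B (2089) and wild-type RNAi replicate C (2203). It gave 4195 to 4467 in dpy-27 embryos and 4467 to 5433 in XO embryos. The cause of the other changes was not tested. The XO call of hsp-1 held in its 24 alternatives and those of hsp-3 and hsp-60 in 23. These refits use the same arrays, and the genes were chosen with earlier results of them known. The counts therefore describe the fits and support nothing. Leaving out probe sets ending in _s_at or _x_at removes hsp-3, hsp-4, hsp-60 and crt-1, so that alternative gave no value for them. The call of crt-1 in XO embryos was lost with most left-out arrays. The date block for the partner lists was chosen after seeing the data. Letters did not pair the arrays: deviations of same-lettered arrays correlated at 0.05, 0.25 and 0.19 for sdc-2 with its controls, 0.02, -0.33 and 0.11 for dpy-27, and 0.02, -0.10 and -0.04 for XO in code 2. With the replicate block the counts were 3210 in sdc-2, 4939 in dpy-27 and 4266 in XO embryos, 6827 within date code 2, 6454 between wild-type dates and 5648 between XO dates.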

Other observations

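Within XO embryos of date code 5, replicates A and B stood above C, D and E for hsp-4, at 12.98 and 12.92 against 11.68, 11.74 and 11.61. The same 2 arrays were also the highest of the 5 for hsp-1 (12.18 and 11.87, against 11.51 to 11.69), hsp-90 (13.12 and 13.03, against 12.76 to 12.79) and dnj-12 (11.65 and 11.76, against 11.31 to 11.43). They were not the highest for hsp-60, at 8.39 and 8.47 against 8.52 to 8.61. The mean over the 3 inducible heat-shock genes was lower in A and B, at 9.40 and 9.21 against 9.90 to 10.19. The split was seen in the values and was not tested.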
